A study of Mus musculus with 6 samples.

Results

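The 36 genes described here are the tumour suppressor gene Trp53, its negative regulators Mdm2 and Mdm4, genes known as transcriptional targets of the p53 protein, and the damage kinases Atm, Chek1 and Chek2, all picked by symbol from a table of 30707 genes, in which every one of the 36 was found. They fall into 6 genes of feedback and regulation, 9 of cell-cycle arrest and growth, 13 of apoptosis and 8 of repair and damage signalling. RNA had been sequenced from mouse hippocampus in 6 samples, 3 given a control virus and 3 given a virus that knocks down SFRS8, a regulator of splicing whose gene is now called Sfswap. The sources used here do not give the strain, sex or age of the mice, the kind of virus, its promoter, the time between infection and collection, or which cells it reached. The series concerns memory and the splicing of synaptic transcripts, whereas the values here are RNA levels per gene.

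The p53 protein is a transcription factor that is held at a low level by Mdm2, a ubiquitin ligase that marks it for destruction, and by Mdm4, which blocks its activation domain. DNA damage kinases such as ATM and CHK2 phosphorylate p53 and release it, after which it binds pairs of a short palindromic half-site and induces genes that stop the cell cycle, slow growth, repair DNA or start apoptosis, together with Mdm2 itself, which closes the loop. In neurons, which no longer divide, the pathway is known mainly for apoptosis after injury.

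Promoter sequences were searched for the p53 half-site, a run of 10 bases of the form 3 purines, C, 2 bases that are each A or T, G and 3 pyrimidines, which reads the same way on both strands. RefSeq windows of 300 bases on GRCm38.p6, from 250 bases before to 50 after a start, were held for 28 of the 36 members. An exact half-site lay in a window of 12 of the 28 (42.9%), against 9.55% of the 27025 genes with a window. A pair of half-sites at most 13 bases apart, with at most 2 of 20 bases off the form and each C and G kept, lay in 6 (21.4%), against 4.71%. The members are genes known as p53 targets, some of them for such sites, so these shares are a description and not independent of how they were chosen.

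The windows below are shown because they hold pairs, or for Aen an exact half-site in a gene whose level rose, and they cover genes with and without a called rise. Each reads 5′ to 3′ on the gene's strand in lower case, with the half-sites of pairs, or the single half-site of Aen, in capitals. Ccng1 is at chr11:40755237-40755536 (minus strand), Cdkn1a at chr17:29090729-29091028 (plus), Bax at chr7:45466849-45467148 (minus), Sesn1 at chr10:41887189-41887488 (plus) and Aen at chr7:78895677-78895976 (plus).
Ccng1: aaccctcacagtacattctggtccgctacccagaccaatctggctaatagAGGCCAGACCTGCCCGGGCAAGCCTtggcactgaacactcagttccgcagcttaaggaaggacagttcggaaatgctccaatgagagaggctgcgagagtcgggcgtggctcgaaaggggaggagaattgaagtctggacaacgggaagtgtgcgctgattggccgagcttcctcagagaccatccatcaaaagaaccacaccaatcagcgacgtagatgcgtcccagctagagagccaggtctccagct
Cdkn1a: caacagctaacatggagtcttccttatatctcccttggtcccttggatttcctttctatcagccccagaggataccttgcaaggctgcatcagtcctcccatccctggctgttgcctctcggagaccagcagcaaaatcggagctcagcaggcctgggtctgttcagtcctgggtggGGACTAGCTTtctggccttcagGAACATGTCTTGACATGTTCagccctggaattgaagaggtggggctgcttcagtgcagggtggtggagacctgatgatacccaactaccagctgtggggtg
Bax: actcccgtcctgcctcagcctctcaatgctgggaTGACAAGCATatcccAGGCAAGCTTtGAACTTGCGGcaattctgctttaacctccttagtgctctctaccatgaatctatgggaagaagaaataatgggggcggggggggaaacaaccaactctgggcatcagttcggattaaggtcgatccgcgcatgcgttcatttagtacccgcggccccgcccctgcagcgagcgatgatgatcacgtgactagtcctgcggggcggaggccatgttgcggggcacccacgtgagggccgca
Sesn1: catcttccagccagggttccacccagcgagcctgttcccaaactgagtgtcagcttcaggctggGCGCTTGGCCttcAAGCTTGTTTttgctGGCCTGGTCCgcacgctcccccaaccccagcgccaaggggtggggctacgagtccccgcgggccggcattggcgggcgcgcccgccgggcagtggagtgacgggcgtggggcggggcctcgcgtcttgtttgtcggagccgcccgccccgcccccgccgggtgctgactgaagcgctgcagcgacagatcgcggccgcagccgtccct
Aen: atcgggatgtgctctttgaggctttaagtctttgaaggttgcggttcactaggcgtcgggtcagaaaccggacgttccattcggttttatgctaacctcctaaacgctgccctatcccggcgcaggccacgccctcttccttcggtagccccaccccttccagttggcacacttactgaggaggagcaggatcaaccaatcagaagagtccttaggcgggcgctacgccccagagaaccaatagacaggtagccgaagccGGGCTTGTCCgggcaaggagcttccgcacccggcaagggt

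In the Ccng1 window a pair with no gap and 1 base off lay at positions −195 to −176 relative to the start. In the window of Cdkn1a shown, a pair of exact half-sites 12 bases apart lay at −73 to −42, and a pair with no gap and 1 base off at −51 to −32. Bax, Sesn1, Gadd45a and Ckap2 held pairs with 2 bases off. Cdkn1a and Sesn1 each have another start. The windows there, chr17:29093519-29093818 and chr10:41810324-41810623, held no exact half-site and no pair. Exact half-sites outside pairs lay in Aen, Mdm2, Trp53, Ei24, Ddit4l and Polk. Perp, Rrm2b, Pmaip1, Zmat3, Ddb2, Trp53inp1, Xpc and Tnfrsf10b had no window.

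**Figure D1:**
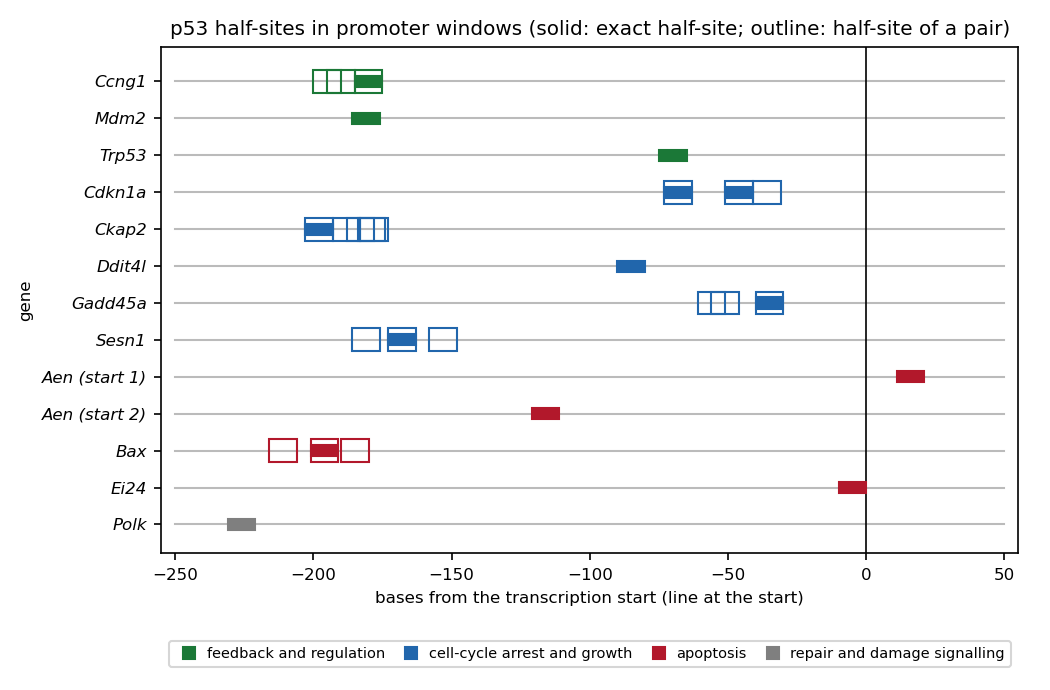
Positions of p53 half-sites in the promoter windows that hold at least 1, against distance in bases from the transcription start; solid blocks are exact half-sites and outlined blocks are half-sites of a pair, coloured by role. Pairs lie in Ccng1, Cdkn1a, Ckap2, Gadd45a, Sesn1 and Bax.

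The targeted gene was lower in every knockdown sample. Sfswap had control values of 16.7, 18.5 and 19.2 FPKM, in the order of samples 1 to 3 that is kept throughout, and knockdown values of 9.79, 11.3 and 9.58 (log2 fold change −0.77, SE 0.09, adjusted p = 0.0432). FPKM are fragments counted per kilobase of exon relative to library size. Libraries held 16622948 to 18097344 reads, so that a single read on 1 kb of exon came to between 0.0553 and 0.0602 FPKM. Log2 fold changes are given as knockdown minus control after adding 1 FPKM to each value, which understates the change of low genes, and a gene is called where limma's Benjamini-Hochberg adjusted p over the 14012 genes tested is under 0.05. Whether the libraries stem from different animals is not stated, and the p-values therefore cover the variation among these 6 samples, part of which may be technical.

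Of the 36 genes, 5 rose, and they act in apoptosis (Phlda3, Aen and Bbc3) and in feedback (Ccng1 and Trp53inp1); whether the roles differ was not tested. Of the 30 members with a mean of at least 1 FPKM, 5 were called higher (Phlda3, Ccng1, Trp53inp1, Aen and Bbc3), where 1.2% of all genes tested were called higher. None was called lower by limma, against 0.228% of all genes, and 0 were lower at an unadjusted p under 0.05. Of the 26 members that passed this filter and had recovered reads, voom, a weighted fit to read counts, called 8 higher and 0 lower. The shares of the 12274 genes it covered were 4.06% and 0.782%. Of the members that passed the filter, it did not cover Cdkn1a, Pmaip1, Fas and Rrm2b. At an unadjusted p under 0.05, 14 of the 30 were higher and 0 lower, against 15.7% and 7.98% of all genes tested. At an adjusted p under 0.1 there were 10 higher and 0 lower, against 7.02% and 2.51%. Of the 30, 24 had a log2 fold change above 0, against 53.2% of all genes tested. In 14 of the 30 the lowest knockdown sample lay above the highest control sample, against 18.0% of all genes tested, and in 0 the reverse held, against 11.8%. The median log2 fold change of the 30 was 0.27, beside 0.02 over all genes tested. Gadd45a, Pmaip1 and Pidd1 were among the 30 only through the knockdown group, since their control means lay under 1 FPKM.

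The 5 calls sat close to the threshold, with adjusted p-values of 0.0432 to 0.0452, and rested on most of the libraries. The count was 0 without control sample 1, 2 or 3 and without knockdown sample 1 or 3, and 6 without knockdown sample 2. Over all 14012 genes tested, 0 were called higher without control sample 1 or 2 or without knockdown sample 1. The number was 8 without control sample 3, 16 without knockdown sample 3 and 160 without knockdown sample 2, beside 168 with all samples. The count of members was also 0 with the choroid plexus level as a covariate, with no filter on low values, with equal FPKM sums, with quantile normalization and without the variance trend. In these fits 0 of all genes were called higher, except 1 with equal FPKM sums. The loss of calls was therefore not particular to these members. The direction of each of the 5 held in all 17 refits. In each of the 5 every knockdown sample lay above every control. Most of these refits, such as those without a sample or with another pseudocount, therefore could not have turned the direction.

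**Figure D2:**
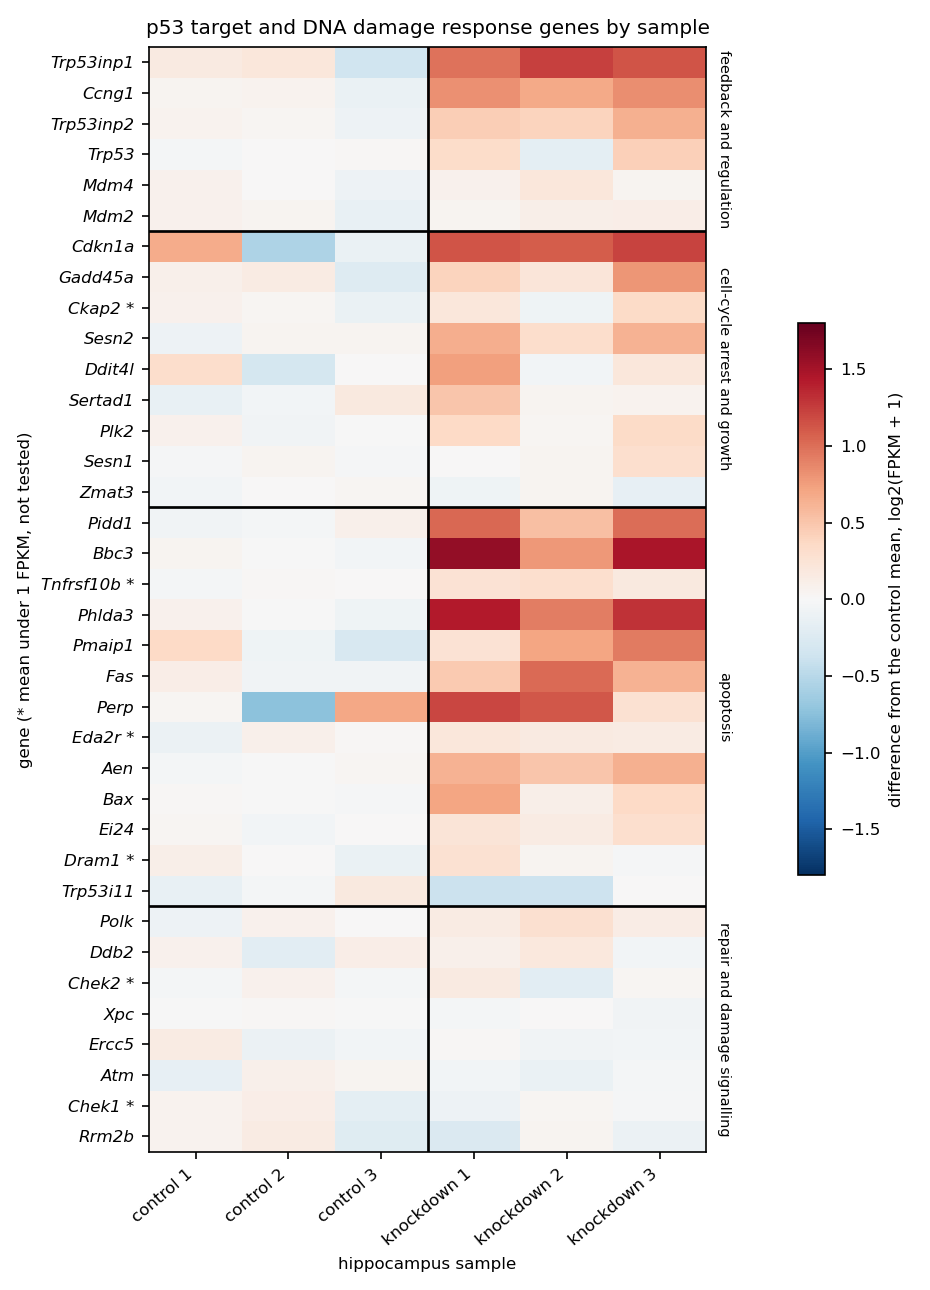
Difference of each gene from its control mean on the log2(FPKM + 1) scale, with the 36 genes in rows by role and the 6 samples in columns; an asterisk marks the 6 genes with a mean under 1 FPKM. The darkest red cells are those of Bbc3 and Phlda3 in knockdown samples 1 and 3, Trp53i11 is blue in knockdown samples 1 and 2, and the repair block stays pale in all 6 samples.

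Levels of some cell type markers differed between the groups. All 8 microglia markers had fold values above 1, with summed levels of 192 to 256 FPKM in the controls and 319 to 489 in the knockdown samples. So had all 7 endothelial markers, at 33.1 to 35.5 against 45.6 to 64.4. Astrocyte sums overlapped, at 602 to 738 against 679 to 962. All 7 astrocyte markers had a ratio of means above 1, but that of Gfap rested on knockdown sample 3, at 454 FPKM. Gfap in knockdown samples 1 and 2, at 200 and 212, lay below every control (244 to 322). Aldh1l1, Slc1a2, Slc1a3 and S100b were 1.05- to 1.09-fold, and Aqp4 and Gja1 2.64- and 1.70-fold. Choroid plexus markers summed to 50.4, 71.2 and 3072 FPKM in control samples 1 to 3 and to 4644, 4328 and 1191 in knockdown samples 1 to 3, so the sum was high in control sample 3 too. The 8 neuronal markers, among them Slc17a7 and Camk2a, summed to 1557 to 1578 FPKM in the controls and 1199 to 1526 in the knockdown samples, and the 6 markers of dentate granule cells to 102 to 129 against 58.5 to 103. Thalamus markers summed to 31.8 to 42.6 FPKM against 35.2 to 108. Of them, Prkcd, Tcf7l2, Ramp3 and Lef1 were each higher in every knockdown sample than in any control, with ratios of means of 2.93 to 4.79. Calb2, the highest of the list in each control at 20.6 to 25.8 FPKM, stood at 7.15, 41.7 and 29.7 after knockdown. Its groups overlapped, as did those of Rora. Oligodendrocyte markers summed to 725 to 872 FPKM against 864 to 1061, and blood markers to 3.61 to 6.69 against 3.81 to 5.25. Each of these markers was above 0 in at least 1 sample. Calls among them were Aqp4 and Gja1 of astrocytes, Pecam1 of endothelium and Ramp3 of thalamus, all higher, and Lct of dentate granule cells, lower, with 0 of 8 called among microglia, neuron or choroid plexus markers. Markers of proliferating cells summed to 1.13 to 1.31 FPKM against 1.11 to 1.95, and all 5 had means under 1 FPKM. Apart from the choroid plexus covariate, the part of these cell types in the values below was not tested. In whole tissue, more cells of a type and more RNA per cell cannot be told apart.

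The gene of p53 itself and its main inhibitors had no called change, but a pair of feedback partners rose. Trp53 (chromosome 11, 69580359 to 69591873, plus strand; all positions are mm10) stood at 6.93, 7.16 and 7.17 FPKM in the controls and at 9.17, 6.19 and 9.84 after knockdown. Knockdown samples 1 and 3 lay above every control and knockdown sample 2 lay below every control, so the groups overlapped (log2 fold change 0.20, SE 0.15, adjusted p = 0.485). Mdm2 (chromosome 10, 117688875 to 117710758, minus strand), which encodes the ubiquitin ligase of p53 and is among its best known targets, stood at 10.6, 10.4 and 8.93 FPKM in the controls and at 10.3, 10.8 and 10.9 after knockdown. Its groups overlapped, and the interval of its fold on the log2(FPKM + 1) scale, 0.929 to 1.22 at 95%, holds no change of more than 1.22-fold. Mdm4 (chromosome 1, 132959484 to 133030561, minus strand) stood at 7.13, 6.71 and 6.24 FPKM in the controls and at 7.12, 7.82 and 6.94 after knockdown, with an interval of 0.942 to 1.23.

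Ccng1 (chromosome 11, 40748552 to 40755311, minus strand) encodes cyclin G1, which recruits a phosphatase to Mdm2. It stood at 22.1, 22.2 and 19.5 FPKM in the controls and at 38.4, 34.7 and 38.6 after knockdown, on 1231 to 1409 and 2025 to 2392 reads. The groups lay far apart with little spread within either (1.75-fold, log2 fold change 0.78, SE 0.08, adjusted p = 0.0432). Trp53inp1 (chromosome 4, 11156431 to 11174379, plus strand) encodes a stress protein that binds p53 and also acts in autophagy. It stood at 3.69, 3.85 and 2.28 FPKM in the controls and at 7.33, 8.86 and 8.20 after knockdown. Every knockdown sample lay above every control, by the ratio of means at 2.48-fold (log2 fold change 1.11, SE 0.16, adjusted p = 0.0432).

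Its paralog Trp53inp2 (chromosome 2, 155381059 to 155389850, plus strand), a regulator of autophagy, was the more abundant of the pair in every sample. It stood at 43.7, 42.9 and 39.1 FPKM in the controls and at 57.3, 55.6 and 65.7 after knockdown. The groups did not overlap, but at 1.42-fold the adjusted p of 0.05003 lay just above the threshold. By voom all 3 of Ccng1, Trp53inp1 and Trp53inp2 were called.

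**Figure D3:**
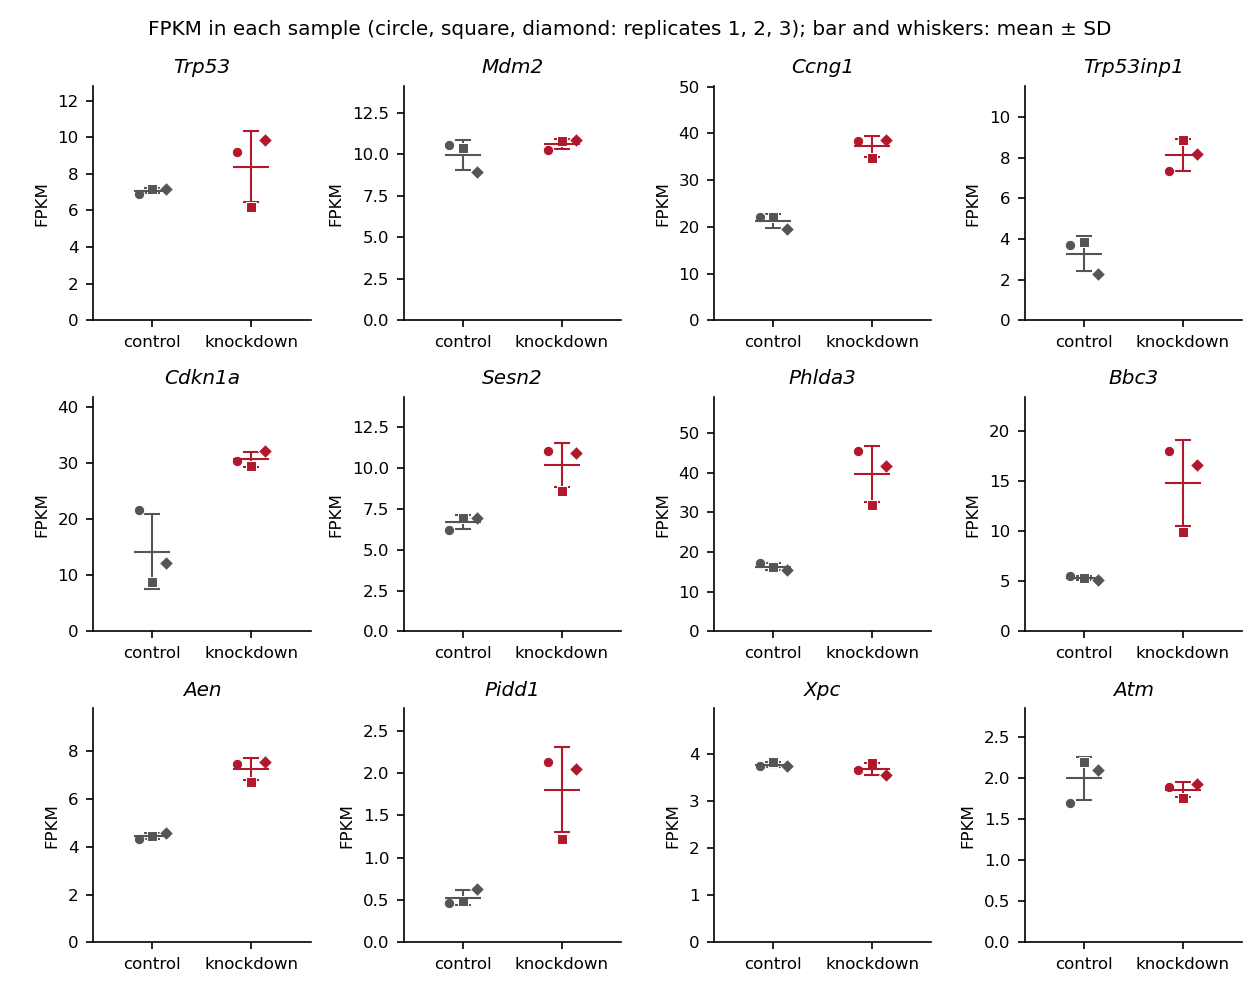
FPKM of 12 genes in each sample, with controls in grey and knockdown samples in red and one marker shape per replicate number; the horizontal bar and whiskers give mean and SD of 3 samples. Phlda3, Ccng1, Trp53inp1, Aen and Bbc3 separate the groups, while Trp53, Mdm2, Xpc and Atm overlap, and knockdown sample 2 (square) is the lowest red point in 9 of the 12 panels.

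Among the apoptosis genes, 3 of the 10 tested were called higher, against 1.2% of all genes tested. Of the 10, 9 had a log2 fold change above 0 (median 0.67), against 53.2% of all genes tested. Pidd1 and Pmaip1, with control means under 1 FPKM, were among the 10 only through the knockdown group. They could therefore only add to the rises. Phlda3 (chromosome 1, 135766119 to 135769136, plus strand) encodes a small protein that keeps the survival kinase AKT off the membrane. It stood at 17.2, 16.2 and 15.4 FPKM in the controls and at 45.4, 31.8 and 41.7 after knockdown, on 431 to 462 and 824 to 1255 reads. The lowest knockdown sample, sample 2, still lay well above every control (2.44-fold, log2 fold change 1.22, SE 0.13, adjusted p = 0.0432). Bbc3 (chromosome 7, 16308393 to 16318205, plus strand) encodes PUMA, a protein of the BH3-only class that frees BAX and BAK to open mitochondria. It stood at 5.57, 5.36 and 5.16 FPKM in the controls and at 18.0, 9.91 and 16.6 after knockdown. Knockdown samples 1 and 3 were the high ones, and the mean was 2.77-fold (log2 fold change 1.28, SE 0.20, adjusted p = 0.0452). Aen (chromosome 7, 78895854 to 78911209, plus strand) encodes a nuclease that cuts DNA in apoptosis. It stood at 4.34, 4.46 and 4.59 FPKM in the controls and at 7.45, 6.70 and 7.54 after knockdown, 1.62-fold with hardly any spread in either group (log2 fold change 0.59, SE 0.08, adjusted p = 0.0432).

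Other genes that act on mitochondria or caspases had higher values that did not pass. Pidd1 (chromosome 7, 141438113 to 141444025, minus strand), the scaffold of a caspase-activating complex, had the largest ratio of any member tested. It stood at 0.461, 0.488 and 0.627 FPKM in the controls and at 2.13, 1.22 and 2.05 after knockdown, on 36 to 51 and 92 to 171 reads. The groups did not overlap (3.43-fold, adjusted p = 0.0532), and with voom, which adds no FPKM pseudocount, it was called at an adjusted p of 0.0319. Bax, which encodes a pore-forming protein of the outer mitochondrial membrane, stood at 11.2, 11.0 and 10.8 FPKM in the controls and at 18.5, 11.9 and 14.3 after knockdown. Knockdown sample 2 lay only just above the controls (adjusted p = 0.166), and 12.2% of the exon bases of Bax are shared with another annotated gene, Gm45808. Pmaip1, which encodes the BH3-only protein NOXA, stood at 1.29, 0.689 and 0.463 FPKM against 1.13, 1.91 and 2.41, with groups that overlapped.

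Receptors of the TNF receptor family had low levels, and the knockdown samples lay above the controls in all 3, without a call. Fas, a death receptor, stood at 1.77, 1.44 and 1.42 FPKM in the controls and at 2.54, 4.14 and 2.93 after knockdown (2.07-fold, adjusted p = 0.0660), and here knockdown sample 2 was the highest. Tnfrsf10b, the receptor of the death ligand TRAIL in the mouse, rested on 12, 17 and 15 control reads and 37, 38 and 29 knockdown reads, a ratio of 2.44 in FPKM. Eda2r, a receptor of that family that binds ectodysplasin A2, rested on 9, 26 and 20 against 37, 31 and 30 reads, a ratio of 1.85. The means of Tnfrsf10b and Eda2r lay under 1 FPKM and were not tested. In a fit with no filter their adjusted p-values were 0.163 and 0.334, beside 0.119 for each of the 5 called genes. That fit called no member and no other gene of the series.

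The remaining apoptosis members differed less or in other ways. Perp, which encodes a membrane protein of desmosomes, stood at 2.70, 1.16 and 4.88 FPKM in the controls and at 7.34, 6.84 and 3.38 after knockdown, so the groups overlapped (adjusted p = 0.235). Its order over the samples was that of the choroid plexus sums except in control samples 1 and 2, and its log2 fold change was 0.87 without and 0.10 with the choroid plexus level as a covariate. For the 5 called genes that covariate left log2 fold changes of 0.58 to 1.41, with adjusted p-values of 0.195 to 0.200. No gene of the series was called with it. Ei24, an endoplasmic reticulum protein first found as a p53-induced gene, stood at 16.1 ± 0.469 against 19.0 ± 1.11 FPKM (SD, n = 3 in each group; adjusted p = 0.127) without overlap. Trp53i11, which is named for its induction by p53, had the lowest log2 fold change of the 30. It stood at 17.3, 18.8 and 21.7 FPKM in the controls and at 14.5, 14.7 and 19.3 after knockdown, with overlapping groups (log2 fold change −0.25, adjusted p = 0.308). Dram1, a lysosomal protein of autophagy, stood at 0.741 ± 0.137 against 0.872 ± 0.210 FPKM, under the filter.

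**Figure D4:**
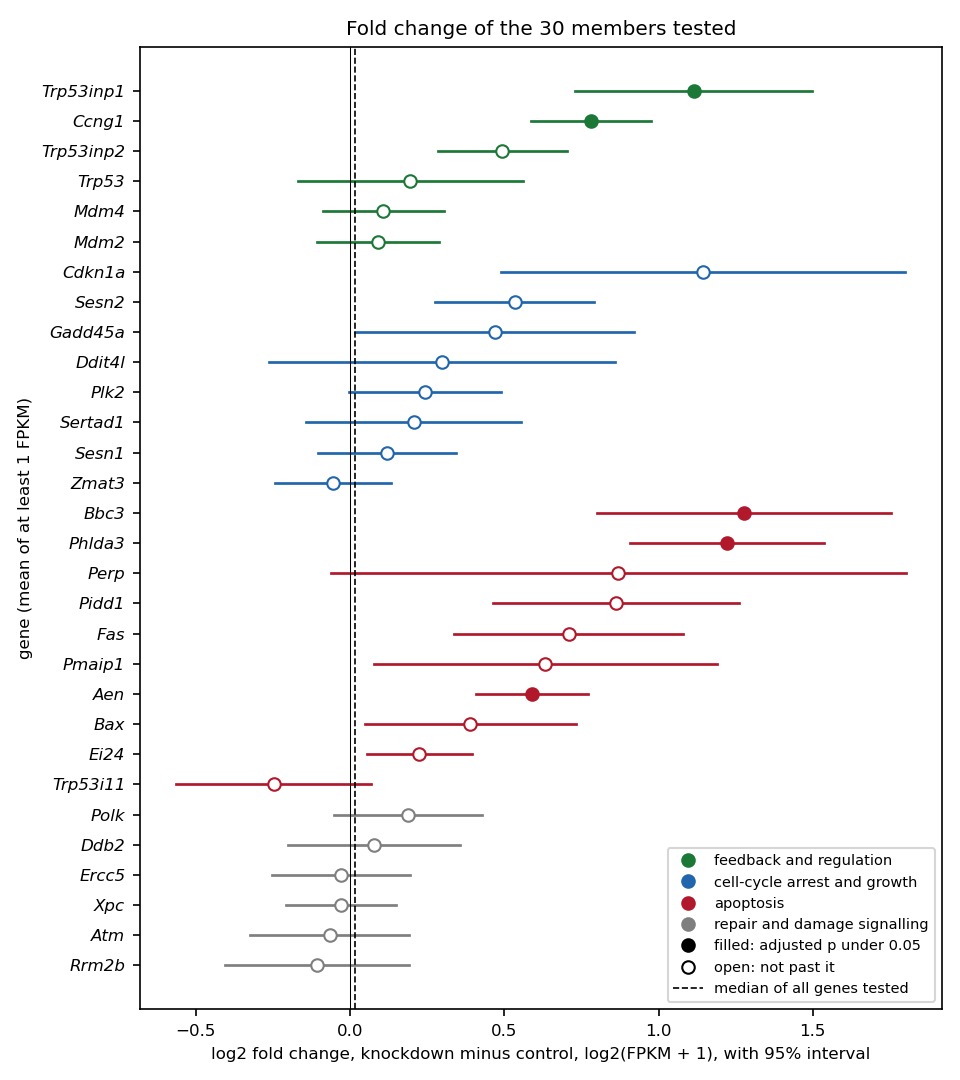
Log2 fold change of the 30 members tested with its 95% interval from limma, by role; filled points passed an adjusted p of 0.05 and the dashed line marks the median of all genes tested. The 5 filled points are Trp53inp1, Ccng1, Bbc3, Phlda3 and Aen, and all 6 intervals of the repair genes cross 0.

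Of the cell-cycle arrest and growth genes, 0 of 8 tested were called by limma and 3 were higher at an unadjusted p under 0.05. Voom covered 7 and called 1, Sesn2. The shares of all genes that were higher in these ways were 1.2%, 15.7% and 4.06%. Gadd45a, 1 of the 3, was among the 8 only through the knockdown group. At an adjusted p under 0.1 there were 2 of 8, Sesn2 and Cdkn1a, against 7.02% of all genes tested. Cdkn1a (chromosome 17, 29090979 to 29100722, plus strand) encodes p21, the inhibitor of cyclin-dependent kinases that carries much of the arrest by p53. It stood at 21.7, 8.77 and 12.2 FPKM in the controls and at 30.3, 29.6 and 32.2 after knockdown. All 3 knockdown samples lay close together above every control, while the controls spread widely, with control sample 1 highest (2.15-fold, log2 fold change 1.14, SE 0.28, adjusted p = 0.0744). Sesn2 (chromosome 4, 132492032 to 132510501, minus strand) encodes sestrin 2, which restrains the growth kinase mTORC1. It stood at 6.19, 6.93 and 6.98 FPKM in the controls and at 11.1, 8.62 and 10.9 after knockdown, with no overlap (1.52-fold, adjusted p = 0.0572). Its paralog Sesn1, with values of 17.7, 18.5 and 17.6 against 18.0, 18.5 and 22.4 FPKM, was more abundant than Sesn2 in every sample, and its groups overlapped (adjusted p = 0.487).

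Gadd45a, a stress protein that binds the replication clamp, rested on 32, 36 and 20 control reads and 48, 36 and 72 knockdown reads, at 0.937 ± 0.268 against 1.70 ± 0.575 FPKM (adjusted p = 0.198). Of its exon bases, 19.1% are shared with E230016M11Rik on the other strand, and no strand-marking step is described for the libraries. Plk2, a kinase that neurons induce by activity as well as by p53, stood at 47.4, 43.0 and 44.8 FPKM in the controls and at 57.9, 46.1 and 57.2 after knockdown, where knockdown sample 2 lay within the controls (adjusted p = 0.213). Zmat3 (chromosome 3, 32334792 to 32366014, minus strand), an RNA-binding zinc finger protein and a direct p53 target, stood at 7.19, 7.53 and 7.64 FPKM in the controls and at 7.04, 7.73 and 6.65 after knockdown. Its interval of 0.845 to 1.10 leaves no rise above 1.10-fold. Ddit4l, an inhibitor of mTORC1, stood at 3.02 ± 0.891 against 3.99 ± 1.43 FPKM and Sertad1, a partner of a cyclin-dependent kinase, at 4.38 ± 0.605 against 5.24 ± 1.13, and neither passed. Ckap2, a protein of the mitotic spindle, rested on 9 to 18 reads in the controls and 10 to 33 in the knockdown samples and was under the filter.

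The repair and damage signalling genes showed no called change, with 0 of 6 tested called by limma, 0 of 6 at an unadjusted p under 0.05 and 0 of the 5 covered by voom, and a median log2 fold change of −0.03. Limma called 1.2% of all genes tested higher and 0.228% lower, and voom 4.06% and 0.782%. At an unadjusted p under 0.05 the shares were 15.7% and 7.98%. With these shares, a count of 0 among so few genes does not set them apart. Xpc (chromosome 6, 91489305 to 91515888, minus strand), which finds DNA distortions for nucleotide excision repair, stood at 3.75, 3.82 and 3.74 FPKM in the controls and at 3.65, 3.81 and 3.55 after knockdown. The samples hardly differed, and its interval was 0.865 to 1.11. Ddb2, which finds ultraviolet damage, stood at 3.08 ± 0.452 against 3.30 ± 0.358 FPKM, with an interval of 0.870 to 1.28, and shares 23.8% of its exon bases with Acp2 on the other strand. Ercc5, the nuclease that cuts beside the lesion, stood at 4.31 ± 0.514 against 4.19 ± 0.165 FPKM, with an interval of 0.839 to 1.15. Rrm2b (chromosome 15, 37923952 to 37961318, minus strand), the p53-inducible subunit of ribonucleotide reductase, stood at 6.43, 6.86 and 5.13 FPKM in the controls and at 4.92, 6.35 and 5.60 after knockdown, with overlapping groups. It had the lowest log2 fold change of this role, −0.11 (SE 0.13, adjusted p = 0.663).

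Polk (chromosome 13, 96480690 to 96542579, minus strand), a polymerase that copies past damaged bases, was the single member of this role whose groups did not overlap. It stood at 1.83, 2.18 and 2.03 FPKM in the controls and at 2.34, 2.67 and 2.29 after knockdown, at an adjusted p of 0.310. Of all genes tested, 18.0% were higher without overlap, so 1 of the 6 tested in this role lies near that share. Atm (chromosome 9, 53439149 to 53536740, minus strand), the kinase that senses double-strand breaks, stood at 1.70, 2.19 and 2.10 FPKM in the controls and at 1.89, 1.75 and 1.93 after knockdown (adjusted p = 0.764). All 3 knockdown samples lay within the range of the controls. The checkpoint kinases Chek1 and Chek2 lay under the filter, at 0.385 ± 0.150 against 0.355 ± 0.0617 and at 0.774 ± 0.0791 against 0.787 ± 0.210 FPKM, on 18 to 42 and 28 to 52 reads per sample. Chek1 lies 52093 bases from Ei24 on chromosome 9.

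For each member whose groups did not overlap, the two-sided exact permutation test over the 6 samples gave p = 0.1, below which 3 samples against 3 cannot go. There were 16 such members of 36, all higher in the knockdown, counting Tnfrsf10b and Eda2r, which were under the filter. Of all 30707 genes, 16695 of them under the filter, 3774 were higher and 2155 lower without overlap. The members lie on 18 chromosomes, with 5 of them, Aen, Bbc3, Bax, Pidd1 and Sertad1, on chromosome 7. Of these 5, 2 were called, beside 5 of all 30 members tested and 1.2% of all genes tested that were called higher. Cdkn1a, Ei24 and Rrm2b share 7.68%, 6.66% and 8.04% of their exon bases with an annotated gene on the other strand, and 30 of the 36 members share none with any gene.

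Set beside the promoter windows shown above, calls and half-sites did not coincide gene by gene. Of the 6 genes with a pair, Ccng1 was called, Cdkn1a, Bax, Sesn1 and Gadd45a were not, and Ckap2 was under the filter and not tested. Cdkn1a, Bax and Gadd45a were higher without overlap, at unadjusted limma p-values of 0.0044, 0.0311 and 0.0441, so the comparison depends on the threshold. Aen, with a half-site that begins at position 11 after the first of its starts, was called, whereas Mdm2, with one that begins at position −186, was not. Phlda3 and Bbc3, both called, held no exact half-site and no such pair in their windows. Trp53inp1, also called, had no window. Among the repair genes with a window, Atm, Chek1, Chek2, Ercc5 and Polk, an exact half-site lay in Polk alone. The absence of these letters says only that they are not in this window.

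In the wider list of pathway genes used here, Steap3 alone was called by limma. Of its 97 genes 80 were tested, and of these 1 was called higher (1.2% of all genes tested were) and 0 were called lower by limma, 9 were higher and 3 lower at an unadjusted p under 0.05, where the shares of all genes were 15.7% and 7.98%. Of the 72 that voom covered it called 4 higher and 0 lower, against 4.06% and 0.782% of all genes. The median log2 fold change of the 80 was 0.02, as over all genes tested. Its parts differed. Of 30 targets and regulators tested, 21 had a log2 fold change above 0 (median 0.12), against 53.2% of all genes tested. So had 9 of 10 genes of apoptosis machinery (median 0.10). Voom covered 28 and 9 of these and called 2 higher in each part. The called gene was Steap3, an iron reductase of endosomes known as a p53 target, at 1.38, 1.51 and 1.67 FPKM in the controls and at 5.98, 3.69 and 6.69 after knockdown (3.59-fold, adjusted p = 0.0432). As for Phlda3 and Bbc3, knockdown sample 2 was the lowest of the 3. Without any 1 of the controls, or without knockdown sample 1 or 3, Steap3 was not called, in fits that called 0 to 16 of all genes higher.

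Rprm, the p53 target Reprimo that acts at the entry to mitosis, stood at 17.9, 18.4 and 21.0 FPKM in the controls and at 29.5, 25.3 and 35.7 after knockdown, without overlap (adjusted p = 0.0614). Casp8, the initiator caspase behind death receptors, stood at 1.15 ± 0.291 FPKM in the controls against 2.31 ± 0.215 after knockdown (SD, n = 3 in each group; adjusted p = 0.0621 by limma). Rprm and Casp8 were not called by limma and were called by voom. At the other end, Wee1, the kinase that holds cells before mitosis, stood at 6.68 ± 0.688 against 4.42 ± 0.976 FPKM (adjusted p = 0.0975). Polb, the polymerase of base excision repair, stood at 9.01 ± 0.285 against 7.46 ± 0.338 (adjusted p = 0.105), and Cdip1, a p53 target in cell death, at 48.8 ± 1.34 against 41.6 ± 2.62 (adjusted p = 0.125). Of 29 repair genes tested 0 were called by limma, and 0 of the 25 covered by voom. Their median was −0.04, with 2 higher and 1 lower at an unadjusted p under 0.05, against 15.7% and 7.98% of all genes. Of 11 damage signalling genes 0 were called by limma, and 0 of the 10 covered by voom, with a median of −0.03. Limma called 1.2% of all genes tested higher and 0.228% lower, and voom 4.06% and 0.782%, so counts of 0 lie near these shares.

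**Figure D5:**
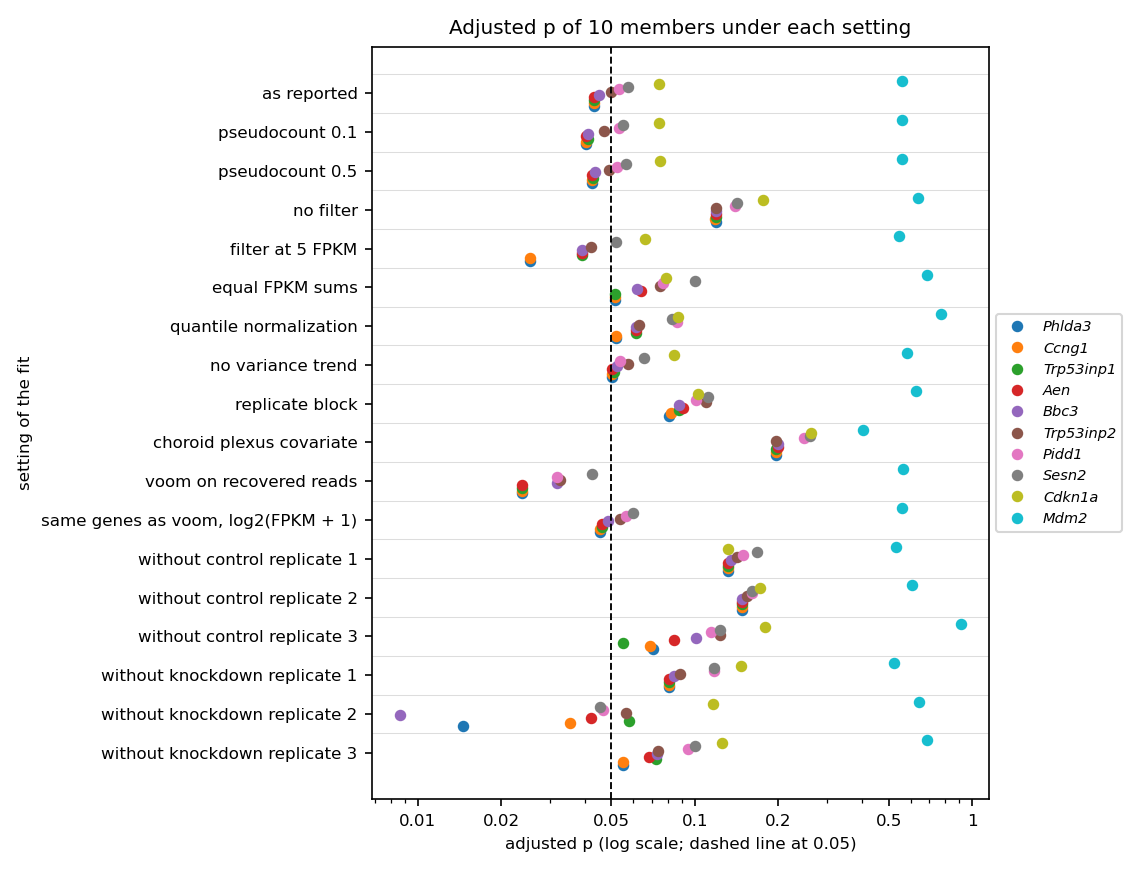
Adjusted p of 10 members, on a log axis, under the fit as reported and each alternative setting; the dashed line marks 0.05. The points of the 5 called genes fall left of the line in 5 or 6 of the 17 alternatives and right of it in the others, between 0.05 and 0.2, while Mdm2 lies at 0.403 or above in each.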

How the data were processed

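Per the labels' protocols, poly(A) RNA of 6 hippocampus samples was fragmented and copied into cDNA with random primers, with no step that marks the strand. The authors deposited FPKM values per gene, 1 column per sample, and per the submitters' processing notes the build was mm10. Aligner and counter were not given in the sources used here. Reads were recovered from the deposited FPKM and the summed exon length in GENCODE M21: of the nonzero values, 90.9% to 91.1% per sample came out whole to within 0.01 reads, among them all 6 values of 32 of the 36 members. Cdkn1a, Pmaip1, Fas and Rrm2b have no read number. A filter kept the 14012 genes whose FPKM averaged 1 or more. Their log2(FPKM + 1) values were fitted with limma 3.58.1 (R 4.3.3) with group as the only term and a mean-variance trend in eBayes. Tests were two-sided, with Benjamini-Hochberg adjustment over all genes. The procedure was tested on simulated data. By rule, values in every sample are given for called members, for the member of smallest p and of lowest log2 fold change in each role, and for Trp53, Mdm2, Mdm4, Cdkn1a and Atm, and of the wider list called genes and the 3 of smallest p in each direction are named. Other sample values, and Casp8, were added after their values were seen. A gene of the wider list that the rule names is not reported here. The members and lists were chosen with earlier results of these data known, so lists are described by counts and medians. Alternatives were other pseudocounts, filters and scalings, no variance trend, a replicate block, a choroid plexus covariate, voom, each sample left out and an adjusted p of 0.1, and, chosen after seeing the data, the genes of voom without voom.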

Additional observations from a re-analysis of the deposited data

How the results depend on the processing

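The count of 5 members called higher was 0 with no filter, equal FPKM sums, quantile normalization, no variance trend or the choroid plexus covariate, 8 with voom, 10 at an adjusted p under 0.1, and 0 to 6 when a sample was left out. It was 5 or 6 at pseudocounts of 0.1 and 0.5, at a filter of 5 FPKM and in the genes of voom without voom. Under each of these settings limma or voom called 0 members lower. Over all genes, the 168 called higher became 0 or 1 with no filter, equal FPKM sums, quantile normalization, no variance trend or the covariate. They became 498 with voom, 983 at an adjusted p under 0.1 and 0 to 160 with a sample left out. In the wider list the 1 higher gene became 0 under the same 5 settings and with a filter at 5 FPKM, 4 with voom, 5 at an adjusted p under 0.1 and 0 to 1 with a sample left out, and the count of lower genes became 1 at an adjusted p under 0.1. With the replicate number as a block, 0 members, 0 genes of the wider list and 0 of all genes tested were called. Same-numbered samples deviated from their group means with correlations of 0.05, 0.04 and −0.0084, and samples of unlike number with −0.13 to 0.083. Whether the numbers pair the samples is not stated, and 3 samples per group cannot settle it. The median log2 fold change of the members ran from 0.21 to 0.42 with a sample left out, highest without knockdown sample 2. Directions turned for uncalled genes near 0: with the covariate for Rrm2b (0.0627), Ercc5 (0.0045) and Ddb2 (−0.0540), after quantile normalization for Ddb2 (−0.0272), and with a sample left out for Ddb2 (−0.0166 to 0.141) and Ercc5 (−0.0824 to 0.0483). The cause of these shifts was not tested. Members under the filter rest on 9 to 60 reads per sample, which limits what can be seen of them.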

Other observations

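Knockdown sample 2 was the lowest of the 3 knockdown samples in 11 of the 16 members whose groups did not overlap (68.8%), and in 44.9% of all 2529 tested genes that were higher without overlap. The sets are unlike, since the 16 include Tnfrsf10b and Eda2r, which were not tested and were lowest in knockdown sample 3. Sfswap was highest in knockdown sample 2 of the 3, at 11.3 FPKM, and Trp53 was lowest there, at 6.19 FPKM. These were looked at after the values were seen.

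Some genes of the wider list were too low to be tested and are given as reads, chosen after their values were seen. Cdkn2a, which encodes the Mdm2 inhibitor ARF and a cyclin-dependent kinase inhibitor, had control read numbers of 1, 3 and 0 and knockdown read numbers of 13, 9 and 4. Gdf15, a secreted stress factor and p53 target, had control read numbers of 4, 5 and 3 and knockdown read numbers of 36, 4 and 18, so knockdown sample 2 lay among the controls. Gtse1, a mitotic protein that binds p53, stood at 0.288 ± 0.109 against 0.644 ± 0.424 FPKM, and knockdown sample 2, at 0.155, lay below every control.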
